A study of Mus musculus with 9 samples.

Results

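The DNA replication genes described here were 47 genes, listed by symbol, out of the 49315 gene IDs in the count table of sorted co-culture cells. They encode the proteins that license, unwind, copy and repackage DNA in S phase. Replication starts when the origin recognition complex, with Cdc6 and Cdt1, loads the MCM helicase onto origins. Cdc45 and the GINS complex then turn the helicase on, and polymerases alpha, delta and epsilon copy the strands with the PCNA clamp and its RFC loader. Transcription of many of these genes is switched on by E2F factors when a cell commits to S phase, so their mRNAs are widely read as a mark of cycling cells. Whether these mRNAs differ between tumor cells and their astrocyte donors, and between tumor cells that did or did not take up astrocyte mitochondria, was the question of the comparisons.

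The data were 9 bulk RNA-seq libraries, 3 from each of 3 sorted populations. SB28 is a single mouse glioblastoma line of C57BL6 background that carries GFP. The astrocytes were primary neonatal cells of C57BL6 mito::mKate2 mice, in which the ubiquitous CAG promoter drives mKate2 fused to a mitochondrial targeting peptide. SB28 cells and astrocytes shared a dish for 2 days in equal numbers, in DMEM/F12 with serum, N2, EGF and FGF and no other treatment, and were sorted from 3 separate co-cultures. mKate2+ SB28 cells carried the astrocyte label, mKate2- SB28 cells from such co-cultures did not, and no SB28 cells grown alone were sequenced among these libraries. Total counts ranged from 24454561 to 35135662 in astrocyte libraries, from 27187348 to 35891589 in mKate2- libraries and from 34175016 to 39287841 in mKate2+ libraries. The lowest count of any of the 47 genes in any library was 75, for Orc1.

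The sorted populations were checked against cell type markers before the replication genes were compared. Summed CPM (library-size scaled counts, TMM-normalized) of 15 astrocyte markers was 1359, 1253 and 1937 in the astrocyte libraries and between 376 and 489 in the 6 SB28 libraries, where 261 of the mKate2- mean came from Gja1 alone. Gja1 went the other way from the sum, at 170, 205 and 208 CPM in astrocytes and 237 to 304 CPM in SB28 libraries. Apoe, the most abundant astrocyte marker in astrocytes at 259.6 CPM, was at 2.81 CPM in mKate2- and 2.54 CPM in mKate2+ libraries, whereas the astrocyte markers S100b and Ntsr2 had means of 0.925 and 0.192 CPM in astrocytes themselves. The astrocyte libraries also held oligodendrocyte-lineage transcripts, with a summed level of 524 to 991 CPM for 10 markers led by Olig1 at 358 CPM, against 38.5 to 48.1 CPM in SB28 libraries. Sox10 and Mag of that list had no counts in 2 of the 3 astrocyte libraries. Fibroblast and mural markers summed to 1062 to 1463 CPM in astrocytes, led by Col1a2 at 972 CPM, and to 642 to 916 CPM in SB28 libraries. Col3a1 of that list went the other way, at 13.2, 19.4 and 44.3 CPM in astrocytes and 58.1 to 115 CPM in SB28 libraries. Pdgfrb was at 55.8 to 61.4 CPM in astrocytes and 41.5 to 60.6 CPM in SB28 libraries, and Dcn, Lum and Rgs5 were at or below 2.64 CPM in every library. The 13 microglia and macrophage markers summed to 28.8 to 41.4 CPM in astrocytes and 47.1 to 66.6 CPM in SB28 libraries, nearly all of it Tmem119. The 6 endothelial markers summed to between 7.63 and 193 CPM in astrocyte libraries and to 49.3 to 60.7 CPM in SB28 libraries. The highest value was in astrocyte replicate 3, nearly all of it Flt1. The 7 neuron markers summed to 55.5, 96.4 and 87.1 CPM in astrocyte replicates 1 to 3 and to 41.4 to 51.3 CPM in SB28 libraries. Tubb3 of that list went the other way, at 9.14 to 13.3 CPM in astrocytes and 17.9 to 27.0 CPM in SB28 libraries. So did Syp, at 0.769 to 1.69 CPM in astrocytes and 2.34 to 3.22 CPM in SB28 libraries. The part of these other transcripts in the comparisons with astrocytes was not tested.

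Libraries of the same group differed by more than counting noise, and mKate2+ replicate 2 stood apart from the other SB28 libraries. Its Euclidean distance on log2 CPM was 66.9 to mKate2+ replicate 1 and 66.5 to replicate 3, whereas those replicates were 42.4 apart and the mKate2- libraries between 47.5 and 50.2. The astrocyte libraries were as far apart or farther, at 66.1 between replicates 1 and 2, 76.1 between 2 and 3 and 93.2 between 1 and 3. The counts of called genes and the values of several genes in which it stood out are also given without it.

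Replication mRNA was more abundant in SB28 cells than in astrocytes. The summed level of the 47 genes was 2008, 1769 and 1912 CPM in astrocyte replicates 1 to 3. It was 4914, 4710.0 and 5338 CPM in the mKate2- replicates and 5027, 4899 and 5462 CPM in the mKate2+ replicates. The 3 astrocyte libraries were all below the 6 SB28 libraries, and the SB28 groups overlapped. As a share of all counts, the 47 genes made up 0.193% ± 0.00909 (SD, n = 3) in astrocytes. That share was 0.505% ± 0.0343 in the mKate2- and 0.497% ± 0.0446 in the mKate2+ population. In these bulk libraries, a smaller fraction of cells in S phase and less replication mRNA per cell cannot be told apart.

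Conditions were compared gene by gene with edgeR's quasi-likelihood test over all genes that exceeded 1 CPM in 2 or more of the 6 libraries, with Benjamini-Hochberg adjustment over all of them, and all 47 genes passed that filter in each comparison. Against astrocytes, a gene was called if its adjusted p was under 0.05 and its log2 fold change beyond 1 in either direction. In mKate2- SB28 cells, 39 of the 47 genes were called higher and 0 lower, in a comparison in which 11.5% of the 13356 genes tested were called higher and 22.4% lower. In mKate2+ cells, 39 were again called higher and 0 lower, where 12.2% of 13342 genes were called higher and 22.8% lower. The genes called were the same 38 in both comparisons, which share the astrocyte libraries, with Orc2 added in mKate2- cells and Gins4 in mKate2+ cells. The median log2 fold change of the 47 genes was 1.49 in mKate2- and 1.52 in mKate2+ cells, against -0.04 and -0.02 over all genes tested. By adjusted p alone, 45 of the 47 were higher in mKate2- cells (29.3% of all genes) and 44 in mKate2+ cells (28% of all genes). The SB28 libraries all lay above the astrocyte libraries for 45 of the 47 in each comparison (34% and 32.9% of all genes), with Rfc3 and Rpa1 the exceptions in mKate2- and Rfc1 and Rfc3 in mKate2+ cells. Without mKate2+ replicate 2, 40 were called higher in mKate2+ cells.

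**Figure D1:**
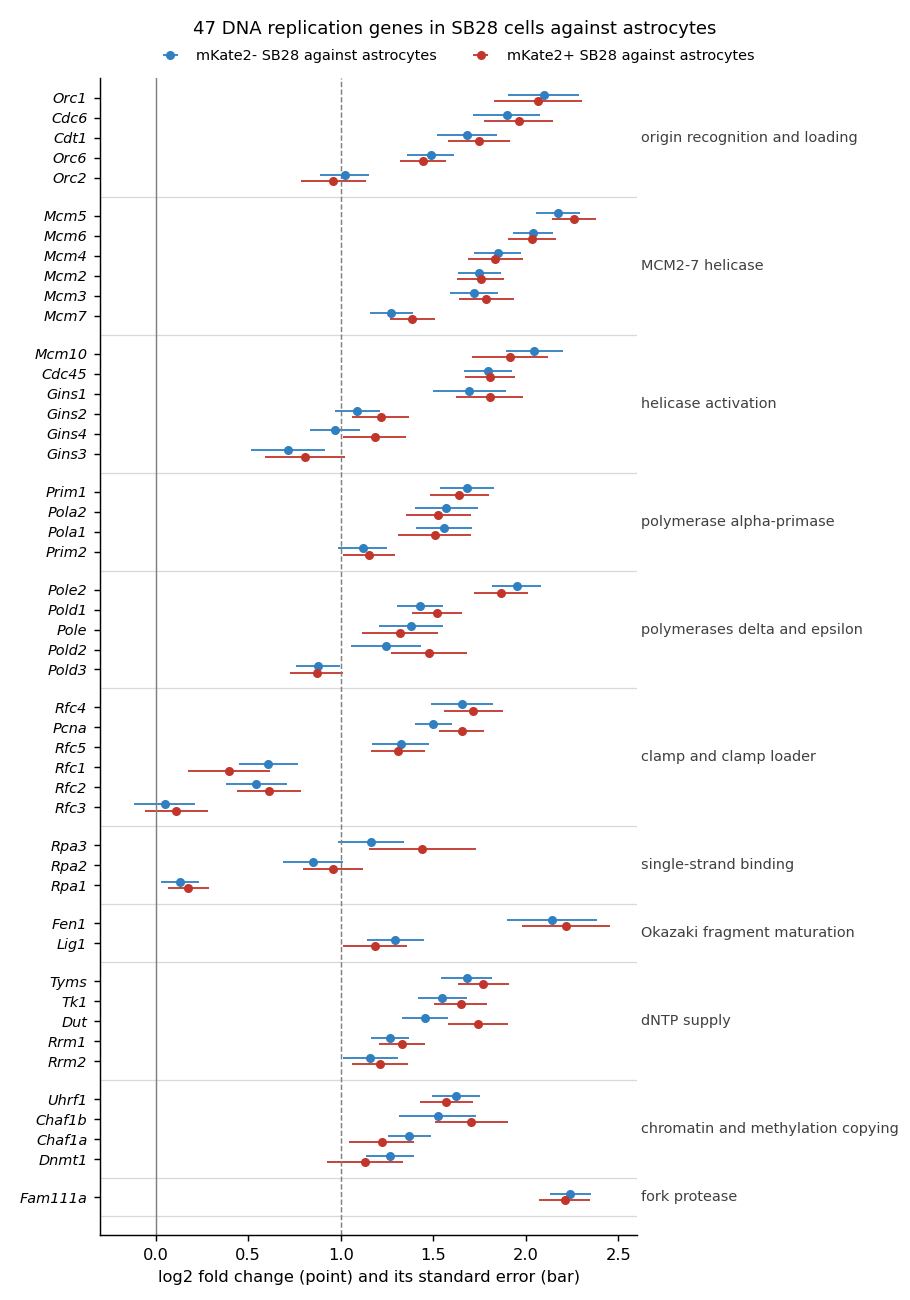
Log2 fold change of the 47 genes against astrocytes, grouped by role, in mKate2- (blue) and mKate2+ (red) SB28 cells. Points are edgeR estimates from 3 against 3 libraries, bars their standard errors, and the dashed line marks a log2 fold change of 1. All 94 estimates lie above 0, and Rfc3 and Rpa1 lie closest to it.

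Of the 5 origin recognition and loading factors, 5 were called higher in mKate2- and 4 in mKate2+ cells. Orc1, the origin recognition subunit whose abundance follows the cell cycle, was at 3.09, 2.96 and 2.91 CPM in astrocyte replicates 1 to 3. It was at 12.9, 11.1 and 14.2 CPM in mKate2- and 11.6, 10.2 and 15.7 CPM in mKate2+ libraries. Each SB28 library thus exceeded each astrocyte library, with a log2 fold change of 2.10 ± 0.19 (SE) in mKate2- cells (edgeR, adjusted p = 7.42e-05) and 2.06 ± 0.24 in mKate2+ cells (adjusted p = 0.000269). Cdc6 and Cdt1, which bring the helicase to the origin, rose by 1.90 and 1.68 in mKate2- cells and by 1.96 and 1.75 in mKate2+ cells. Orc6, the member of this role with the highest level per kilobase of exon, was at 32.9, 34.6 and 28.4 CPM in astrocytes, 97.6, 79.6 and 90.5 CPM in mKate2- and 84.8, 84.2 and 92.0 CPM in mKate2+ libraries. Orc2, a core subunit that cells keep outside S phase as well, was at 28.3, 33.9 and 30.2 CPM in astrocytes, 67.1, 54.1 and 66.0 CPM in mKate2- and 60.3, 47.9 and 71.5 CPM in mKate2+ cells. The log2 fold change of Orc2 was 1.02 ± 0.13 in mKate2- cells (adjusted p = 0.000372) and 0.96 ± 0.18 in mKate2+ cells (adjusted p = 0.00251), so the call differed although the groups were apart in both. Without mKate2+ replicate 2, which held the lowest SB28 value, it was 1.10 in mKate2+ cells and called, and its call in mKate2- cells was lost in 6 of 14 alternative settings.

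The 6 subunits of the MCM2-7 helicase, the motor that unwinds DNA at the fork, were all called higher in both SB28 groups. Mcm5 was at 44.2, 43.9 and 40.7 CPM in astrocytes, 189.8, 172 and 217 CPM in mKate2- and 199.9, 192 and 224 CPM in mKate2+ libraries. The groups did not overlap, and the log2 fold changes were 2.17 ± 0.12 (adjusted p = 9.41e-06) and 2.26 ± 0.12 (adjusted p = 1.06e-05), among the 3 largest of the 47 genes in both comparisons. Mcm6, at chromosome 1 from 128331590 to 128359664 on the minus strand in GRCm38, was at 105, 88.7 and 93.6 CPM in astrocytes, 373, 393 and 410.3 CPM in mKate2- and 393, 358 and 423 CPM in mKate2+ libraries. It had the largest CPM of the 47 genes in each SB28 library except mKate2+ replicate 2, where Pcna did. Mcm7 changed least of the 6, by 1.27 ± 0.12 and 1.39 ± 0.12. It shares 321 exonic bases with Ap4m1 and 64 with Cops6 on the other strand, so its level is uncertain if strand was not used. The same holds for Orc2, with 1150 of 3857 exonic bases shared with Nif3l1, for Rfc2, with 952 of 6303 shared with Lat2, for Fam111a, with 592 of 4125 shared with the pseudogene Gm16274, for Rfc5, with 499 of 4669 shared with Wsb2, for Orc1, with 376 of 3479 shared with Gm12743, for Lig1, with 247 of 4268 shared with Zswim9, for Cdc45, with 209 of 3506 shared with Ufd1, and for Rfc4, with 194 of 1533 shared with Eif4a2. Pole2 shares 245 of 2881 exonic bases with Gm49384 on the same strand. Mcm7 likewise shares 84 with the miRNA gene Mir25 and 88 with Mir93. Strand does not tell such overlaps apart.

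The helicase subunits, which act in equal numbers in the ring, did not have equal mRNA levels. Per kilobase of exon, Mcm2 was the lowest and Mcm6 the highest in each group, at 9.19 and 20.5 CPM per kb in astrocytes, 30.8 and 84.0 in mKate2- cells and 31.0 and 83.9 in mKate2+ cells. The highest level was thus 2.23, 2.73 and 2.70 times the lowest in the respective groups. These ratios depend on the exons that the annotation assigns to each gene.

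**Figure D2:**
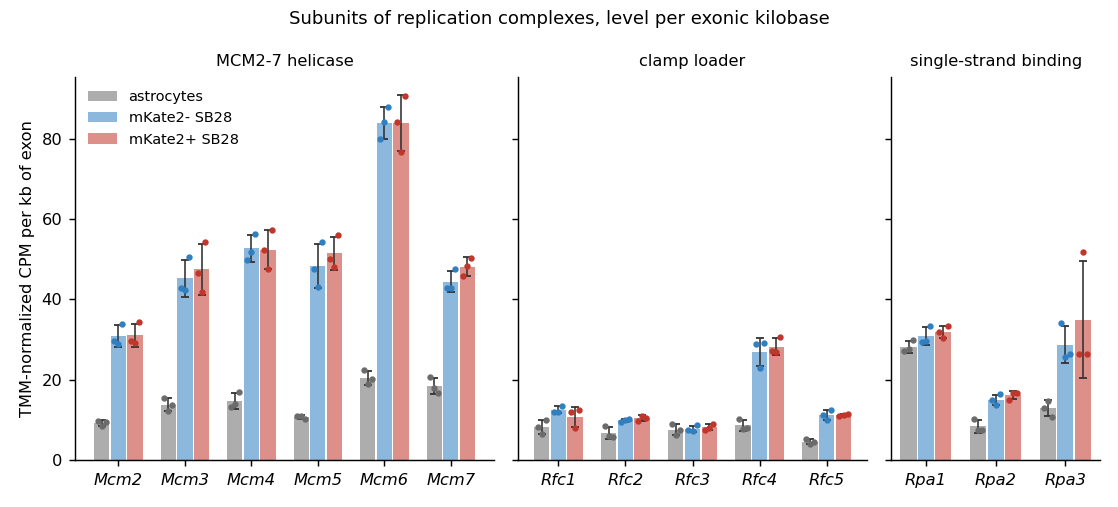
Level per kilobase of exon (TMM-normalized CPM per kb) of the subunits of the MCM2-7 helicase, the RFC clamp loader and the single-strand binding protein RPA. Bars are means of 3 libraries, error bars SDs and points libraries. The MCM subunits are all higher in SB28 cells, Rfc4 and Rfc5 are higher beside a nearly level Rfc3, and Rpa1 is at about the same level in all groups.

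Among the factors that switch the loaded helicase on, Mcm10 and Cdc45 rose most. Mcm10 was at 11.0, 11.1 and 13.0 CPM in astrocytes, 50.1, 41.0 and 53.6 CPM in mKate2- and 48.5, 32.6 and 51.1 CPM in mKate2+ libraries, with log2 fold changes of 2.05 ± 0.15 and 1.91 ± 0.21. Cdc45 rose by 1.79 ± 0.13 and 1.80 ± 0.13. The 4 subunits of GINS, a complex that bridges helicase and polymerase, were less uniform. Gins1 and Gins2 were called in both comparisons, at 1.69 and 1.09 in mKate2- and 1.80 and 1.21 in mKate2+ cells. Gins4 was at 29.7, 28.8 and 23.9 CPM in astrocytes, 58.9, 51.5 and 50.4 CPM in mKate2- and 56.0, 75.8 and 55.4 CPM in mKate2+ libraries. For Gins4 this gave a log2 fold change of 0.97 ± 0.13 in mKate2- cells (adjusted p = 0.000498) and 1.18 ± 0.17 in mKate2+ cells (adjusted p = 0.000751). It was 1.03 in mKate2+ cells without replicate 2, which held the high value. The call of Gins4 in mKate2+ cells was lost with the gene length trend removed. In mKate2- cells it stayed uncalled in 10 of 14 alternative settings and was called in the others. Gins3 had log2 fold changes of 0.72 ± 0.20 (adjusted p = 0.015) and 0.81 ± 0.22 (adjusted p = 0.0135), past the adjusted p but under the fold threshold. Gins2 shares 2758 of its 4097 exonic bases with Gse1 on the other strand, which makes its level uncertain if strand was not used.

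The polymerases rose as well. The 4 subunits of polymerase alpha-primase, which lays down the RNA-DNA primers, were all called in both comparisons, and their levels per kb were close to one another, between 2.98 and 3.32 CPM per kb in astrocytes and between 7.17 and 9.57 in mKate2- cells. Pola2 was at 33.3, 25.4 and 21.8 CPM in astrocytes, 76.9, 73.6 and 87.6 CPM in mKate2- and 76.5, 70.8 and 84.1 CPM in mKate2+ libraries, with log2 fold changes of 1.57 ± 0.17 and 1.53 ± 0.18. Of polymerases delta and epsilon, which extend the lagging and leading strands, Pold1, Pold2, Pole and Pole2 were called in both comparisons and Pold3 in neither, at 0.88 ± 0.12 and 0.87 ± 0.14. Pole2, an epsilon subunit, rose most of these, by 1.95 and 1.87. Pold2 had the highest level per kb of this role and was at 68.3, 49.8 and 40.0 CPM in astrocytes, 123, 119 and 130.3 CPM in mKate2- and 135, 168 and 136 CPM in mKate2+ libraries.

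The clamp and its loader were split. Pcna, the sliding clamp that tethers polymerases, was at 111, 117 and 119 CPM in astrocytes, 344, 302 and 336 CPM in mKate2- and 331, 404 and 358 CPM in mKate2+ libraries, and had the highest level per kb of all 47 genes in each group, at 48.3, 136 and 152 CPM per kb. Its log2 fold changes were 1.5 ± 0.10 (adjusted p = 2.08e-05) and 1.65 ± 0.12 (adjusted p = 4.16e-05). The processed pseudogene Pcna-ps2 collected 334 counts over all 9 libraries. Of the 5 subunits of the RFC clamp loader, Rfc4 and Rfc5 rose, by 1.65 and 1.32 in mKate2- and 1.72 and 1.31 in mKate2+ cells.

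The other 3 loader subunits were not called. Rfc3, a small subunit, was at 32.2, 22.3 and 27.2 CPM in astrocytes, 26.9, 26.3 and 31.1 CPM in mKate2- and 27.0, 28.6 and 32.6 CPM in mKate2+ libraries. The groups overlapped, and the log2 fold changes of 0.05 ± 0.16 (adjusted p = 0.815) and 0.11 ± 0.17 (adjusted p = 0.594) were smaller than their errors. The sign of the Rfc3 estimate turned under upper-quartile scaling in mKate2- cells and without astrocyte replicate 2 in both. Rfc2 was at 53.9, 37.6 and 36.4 CPM in astrocytes, 60.0, 61.9 and 64.0 CPM in mKate2- and 60.4, 69.7 and 65.2 CPM in mKate2+ libraries, with log2 fold changes of 0.54 ± 0.16 (adjusted p = 0.0199) and 0.61 ± 0.17 (adjusted p = 0.0163, and 0.0515 without mKate2+ replicate 2). Rfc1, the large subunit, was at 49.0, 39.2 and 59.7 CPM in astrocytes, 71.4, 72.5 and 81.1 CPM in mKate2- and 72.4, 47.6 and 74.4 CPM in mKate2+ libraries, so that mKate2+ replicate 2 fell within the astrocyte range. Rfc1 thus had a log2 fold change of 0.61 ± 0.16 in mKate2- cells (adjusted p = 0.0111) and 0.40 ± 0.22 in mKate2+ cells (adjusted p = 0.158), and in mKate2+ cells it was 0.58 ± 0.19 without that library (adjusted p = 0.0393). Clamp and loader, with 3 of 6 genes called in each comparison, and single-strand binding, with 1 of 3, were the roles with the smallest shares called.

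RPA, the trimer that coats single-stranded DNA in replication and in repair, had 1 of its 3 subunits called. Rpa1, the largest subunit, was at 151, 154 and 167 CPM in astrocytes, 164, 165 and 186 CPM in mKate2- and 178, 169 and 187 CPM in mKate2+ libraries. It was the most abundant of the 47 genes by CPM in each astrocyte library, and its log2 fold changes were 0.13 ± 0.10 (adjusted p = 0.288) and 0.18 ± 0.11 (adjusted p = 0.199). Rpa2 had values of 0.85 ± 0.16 and 0.96 ± 0.16, past the adjusted p but under the fold threshold. Rpa3 was at 14.8, 16.8 and 12.2 CPM in astrocytes, 38.7, 29.1 and 30.1 CPM in mKate2- and 30.1, 58.8 and 30.1 CPM in mKate2+ libraries. It was called in both comparisons, at 1.16 ± 0.18 and 1.44 ± 0.29, and the latter was 1.05 ± 0.18 without mKate2+ replicate 2.

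**Figure D3:**
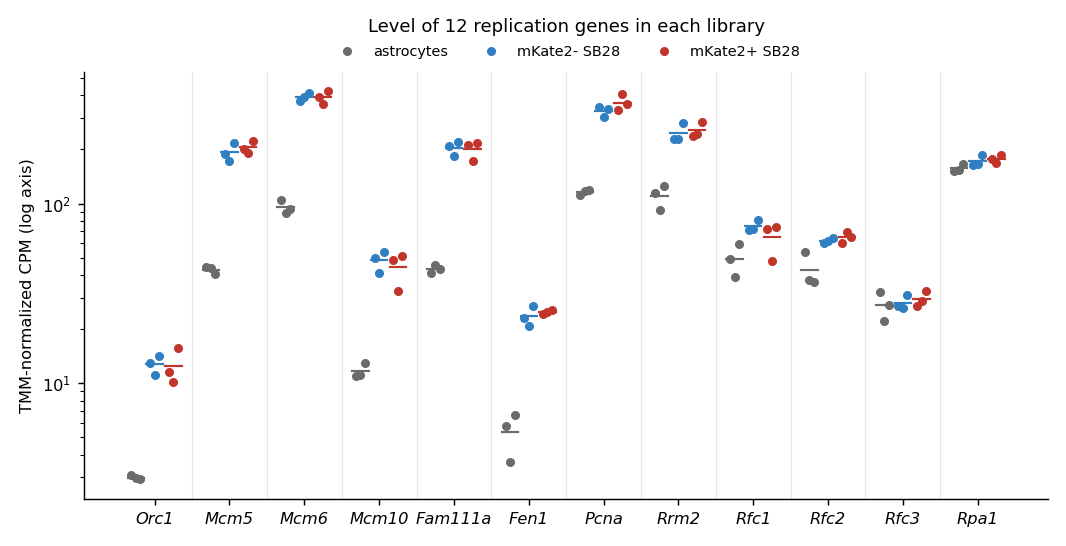
TMM-normalized CPM of 12 replication genes in each library, on a log axis, in astrocytes (gray), mKate2- (blue) and mKate2+ (red) SB28 cells. Points are libraries in replicate order and lines are group means. The first 8 genes lie apart from astrocytes in every SB28 library, whereas Rfc3 overlaps in both groups, Rfc1 in mKate2+ and Rpa1 in mKate2- cells.

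Both genes of Okazaki fragment maturation and the 5 of the 47 that supply nucleotides were called in both SB28 groups. Fen1, the nuclease that trims Okazaki fragments, was at 5.77, 3.67 and 6.63 CPM in astrocytes, 22.9, 20.8 and 27.0 CPM in mKate2- and 24.3, 24.8 and 25.6 CPM in mKate2+ libraries. Its log2 fold changes were 2.14 ± 0.24 (adjusted p = 0.000195) and 2.22 ± 0.24 (adjusted p = 0.000195), but 1909 of its 2422 exonic bases also lie in the antisense gene Gm10143, so that its level is uncertain if strand was not used. Lig1, the ligase that seals the fragments, was at 57.8, 38.7 and 44.8 CPM in astrocytes, 112, 111 and 122 CPM in mKate2- and 113, 93.0 and 115 CPM in mKate2+ libraries. Rrm2, the inducible subunit of ribonucleotide reductase, was at 115, 91.6 and 124 CPM in astrocytes, 228, 228 and 281 CPM in mKate2- and 239, 244 and 283 CPM in mKate2+ libraries, with log2 fold changes of 1.16 ± 0.15 and 1.21 ± 0.15. Its partner Rrm1, thymidylate synthase Tyms, thymidine kinase Tk1 and the dUTP hydrolase Dut rose by 1.26 to 1.68 in mKate2- and by 1.33 to 1.77 in mKate2+ cells.

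Of the factors that copy chromatin and its methylation, the CAF-1 subunits Chaf1a and Chaf1b, the maintenance methyltransferase Dnmt1 and its recruiter Uhrf1 rose by 1.26 to 1.62 in mKate2- and by 1.13 to 1.71 in mKate2+ cells. Uhrf1 was at 62.6, 48.4 and 58.1 CPM in astrocytes, 165, 164 and 189.7 CPM in mKate2- and 169, 149.7 and 183 CPM in mKate2+ libraries. Chaf1a shares 4648 of its 8854 exonic bases with Ubxn6 on the other strand, which makes its level uncertain if strand was not used. Fam111a, a protease that clears protein obstacles from replication forks, was at 41.2, 45.5 and 43.3 CPM in astrocytes, 208, 184 and 220.2 CPM in mKate2- and 211, 172 and 218 CPM in mKate2+ libraries. The gene lies on chromosome 19 from 12545740 to 12589768 on the plus strand in GRCm38. Its log2 fold change of 2.24 ± 0.11 in mKate2- cells (adjusted p = 8.3e-06) was the largest of the 47 genes, and it was 2.21 ± 0.14 in mKate2+ cells (adjusted p = 1.97e-05). In all, 6 of the 47 genes were past a log2 fold change of 2 with an adjusted p below 0.05 in mKate2- cells (1.95% of all genes) and 5 in mKate2+ cells (2.14%).

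Promoter sequence was examined in the RefSeq table for GRCm38.p6, with windows from 250 bases before to 50 after each start. The letters did not enter the choice of the genes. Many of the genes are known to be switched on by E2F, as stated above, so the E2F share is not independent of that choice. Windows were found for 40 of the 47 genes, and not for Gins1, Gins2, Gins4, Rfc2, Pole, Mcm4 and Prim2. E2F factors bind letters such as TTTCCCGC, TTTGGCGC, TTTCGCGC and TTTGCCGC, and 16 of the 40 genes (40%) held at least 1 of these on either strand, against 2.605% of all 27025 genes with a window. The share was 36.842% of S phase entry regulators, 25.926% of other replication factors, 3.704% of mitosis genes and 0% of other dNTP supply genes (0 of 10). The NF-Y letters CCAAT were in 26 of the 40 (65%), against 41.058% of all genes. TTTGAA or TTCGAA, letters of the CHR element of mitotic promoters, were in 8 of the 40 (20%), against 21.661% of all genes. Of the MCM2-7 genes, 4 of the 5 with a window held E2F letters and all 5 held CCAAT. E2F letters were in 13 of the 33 genes with a window that were called in both comparisons (39.394%). They were in 3 of the 7 that were not (42.857%), among them Rfc3 with TTTCGCGC. The difference between these shares was not tested, and 7 genes are too few to compare them. A match is a description of the letters and not of binding. The shares over all genes count every gene with a window, expressed here or not, and were not matched for base composition.

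Below are the 250 bases before the RefSeq start of Mcm5, Mcm6 and Pola1, which rose in both comparisons and hold E2F letters there, and of Fam111a, with the largest change in mKate2- cells and no E2F letters in this window. Each is shown on the gene's strand, 5′ to 3′, with E2F and CCAAT letters, read on either strand, in capitals. The windows lie at chr8:75109259-75109508 (plus strand), chr1:128359706-128359955 (minus strand), chrX:93632156-93632405 (minus strand) and chr19:12573260-12573509 (plus strand). The Fam111a window lies within the span given above for that gene, not before its first base at 12545740.
Mcm5: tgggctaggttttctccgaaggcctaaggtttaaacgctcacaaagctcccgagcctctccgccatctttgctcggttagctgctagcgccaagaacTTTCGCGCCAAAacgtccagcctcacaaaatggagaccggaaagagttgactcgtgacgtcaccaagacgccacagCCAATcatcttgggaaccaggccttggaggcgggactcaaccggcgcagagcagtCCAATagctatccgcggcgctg
Mcm6: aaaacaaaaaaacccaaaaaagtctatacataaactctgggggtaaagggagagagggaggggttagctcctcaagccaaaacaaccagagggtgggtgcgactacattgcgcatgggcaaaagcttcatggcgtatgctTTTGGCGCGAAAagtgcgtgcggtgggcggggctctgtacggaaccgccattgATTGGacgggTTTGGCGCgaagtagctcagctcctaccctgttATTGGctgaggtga
Pola1: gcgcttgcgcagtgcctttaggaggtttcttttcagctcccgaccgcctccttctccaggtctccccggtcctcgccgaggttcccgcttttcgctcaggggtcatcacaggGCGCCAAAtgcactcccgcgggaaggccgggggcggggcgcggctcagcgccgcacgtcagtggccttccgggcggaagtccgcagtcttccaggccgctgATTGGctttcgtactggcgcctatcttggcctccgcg
Fam111a: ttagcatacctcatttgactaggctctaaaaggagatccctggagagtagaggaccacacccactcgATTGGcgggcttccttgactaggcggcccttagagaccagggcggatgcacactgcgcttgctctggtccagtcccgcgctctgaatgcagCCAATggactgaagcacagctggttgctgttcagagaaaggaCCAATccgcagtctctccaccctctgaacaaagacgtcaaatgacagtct
In the Mcm5 window, TTTCGCGC and its neighbor TTTGGCGC on the other strand overlap, and CCAAT occurs 2 times closer to the start. The Mcm6 window holds 3 E2F matches, of which 2 overlap, and 2 CCAAT matches read from the other strand. The Pola1 window holds 1 match of each kind, and the Fam111a window 3 CCAAT matches.

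The comparison of mKate2+ with mKate2- SB28 cells called few genes of any kind and none of the 47, so that this 0 says little about replication genes. A gene was called here at a fold change above 1.5, an unadjusted p below 0.05 and a mean count above 50, by which 0 of the 47 were called in either direction, where 0.194% of the 11854 genes tested were called higher and 0.169% lower. None of the 47 had an unadjusted p below 0.05 by edgeR or by DESeq2, against 0.759% higher and 1.27% lower over all genes by edgeR, and the smallest adjusted p by edgeR was 0.923. Over all genes, 0% passed an adjusted p of 0.05 by edgeR. The 47 log2 fold changes ranged from -0.23 for Rfc1 to 0.28 for Dut with a median of 0.04, against 0.00 over all genes, and 27 of them were above 0, where 50.9% of all genes were. Their standard errors lay between 0.07 for Pold1 and 0.27 for Rpa3. A p that misses the threshold does not show that the groups were equal.

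The genes with the smallest p values were Pold2, Dut and Chaf1b. Pold2, a small subunit of polymerase delta with the levels given above, had a log2 fold change of 0.22 ± 0.11 (edgeR, unadjusted p = 0.0693, adjusted p = 0.923), and its 3 mKate2+ libraries were all above the 3 mKate2- libraries. Dut, which keeps uracil out of DNA, was at 40.8, 40.4 and 36.2 CPM in astrocytes, 116, 91.6 and 113 CPM in mKate2- and 106, 157 and 129.5 CPM in mKate2+ libraries. The SB28 groups overlapped, with a log2 fold change of 0.28 ± 0.16 (unadjusted p = 0.115), and replicate 2 held the highest value. Chaf1b was at 14.5, 8.85 and 12.2 CPM in astrocytes, 33.9, 29.0 and 38.9 CPM in mKate2- and 38.0, 36.7 and 41.1 CPM in mKate2+ libraries, with a log2 fold change of 0.17 ± 0.12 between the SB28 groups (unadjusted p = 0.184). The groups did not overlap for Pold1 and Pold2 alone among the 47, both higher in mKate2+ cells, where 5.46% of all genes were higher and 3.88% lower without overlap. Without mKate2+ replicate 2, the log2 fold change was 0.11 ± 0.12 for Dut (unadjusted p = 0.356) and 0.10 ± 0.07 for Pold2 (unadjusted p = 0.168). Without mKate2+ replicate 1, the unadjusted p of Dut was 0.0222 and that of Pold2 0.0495, with an adjusted p of 0.639 for both, and without a filter on low counts these unadjusted p values were 0.0244 and 0.0458, with adjusted p of 0.824 and 0.852. In the other settings run, none of the 47 had an unadjusted p below 0.05.

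mKate2+ replicate 2 set much of the scatter in this comparison. Its log2 level minus the mean of the other 5 SB28 libraries was 0.90 for Rpa3, 0.51 for Dut, 0.48 for Gins4 and 0.39 for Pold2, and -0.64 for Rfc1, -0.61 for Dnmt1, -0.58 for Mcm10 and -0.54 for Chaf1a. These differences followed exonic length. Over the 47 genes, Pearson's r with log2 exonic length was -0.62, and over 11840 genes tested it was -0.40, as a description across genes that share 1 library. The 9 replication genes shorter than 2500 bases had a median difference of 0.28 and the 15 of at least 5000 bases one of -0.10. Without this library, the 47 log2 fold changes between mKate2+ and mKate2- cells ranged from -0.14 for Rpa3 to 0.20 for Chaf1b, their median was 0.04 and 36 of 47 were above 0. Without mKate2+ replicate 3, the median was -0.05 and 18 were above 0, so that the sign of the median turned with the choice of library. RNA quality of this library was not analysed here, and its part in these values was not tested.

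**Figure D4:**
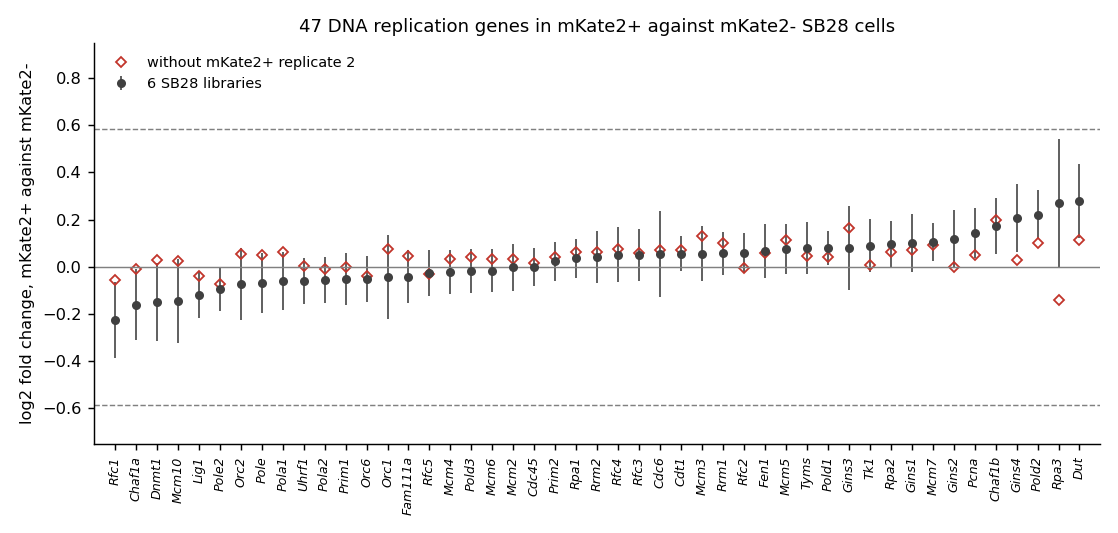
Log2 fold change of the 47 genes in mKate2+ against mKate2- SB28 cells, ordered by size. Filled circles are edgeR estimates from 6 libraries with standard errors, open diamonds are estimates without mKate2+ replicate 2, and dashed lines mark a fold change of 1.5 in either direction. All estimates lie within the dashed lines, and Rfc1 and Dut, at the ends, move toward 0 without that library.

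**Figure D5:**
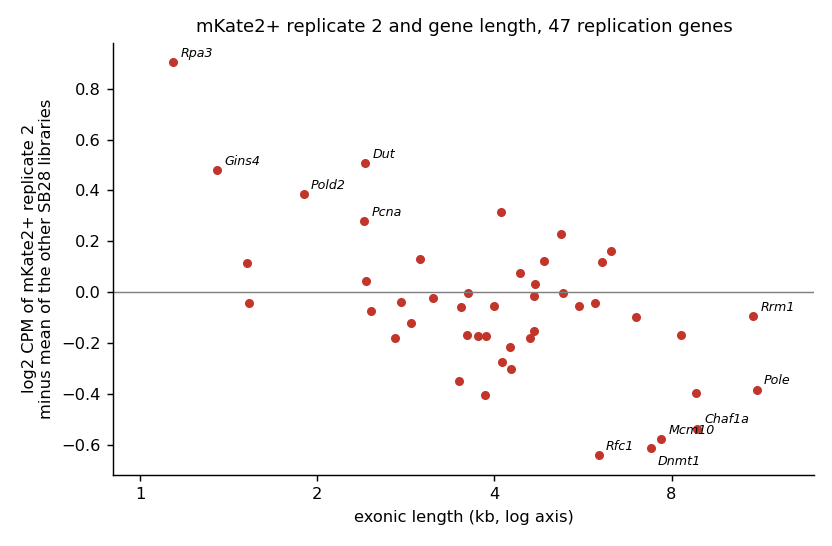
Log2 CPM of each of the 47 genes in mKate2+ replicate 2 minus the mean of the other 5 SB28 libraries, against exonic length on a log axis. Points are genes. Rpa3 lies highest and Rfc1 and Dnmt1 lowest, and the points scatter around the trend, with Tk1 and Rfc2 above 0 although long and Orc6 and Rfc4 below it although short.

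Most other genes of replication and mitosis, from lists written beside the 47, were also higher in SB28 cells than in astrocytes. Over all genes tested, 11.5% were called higher in mKate2- and 12.2% in mKate2+ cells. Of 34 other replication factors, 21 were called higher in mKate2- and 19 in mKate2+ cells and 0 lower, with a median log2 fold change of 1.10 and 1.07, and 32 of the 34 were above 0 in each comparison. Pold4, the smallest polymerase delta subunit, was at 41.1, 37.2 and 33.7 CPM in astrocytes, 27.4, 30.8 and 25.0 CPM in mKate2- and 28.5, 53.6 and 28.1 CPM in mKate2+ libraries. It was lower by adjusted p alone in mKate2- cells (-0.42, adjusted p = 0.026) and at -0.03 in mKate2+ cells, where replicate 2 held the high value, and at -0.39 without that library (adjusted p = 0.0595). Dbf4, the activator of the Cdc7 kinase that fires origins, was at 49.2, 47.4 and 49.8 CPM in astrocytes, 181, 161 and 172 CPM in mKate2- and 195, 147 and 180.1 CPM in mKate2+ libraries. Mtbp, an origin firing factor, rose by 2.10 ± 0.13 and 2.07 ± 0.16. Of 12 other genes of dNTP and histone mRNA supply, 4 were called higher in mKate2- and 5 in mKate2+ cells and 0 lower, and these included the histone mRNA binder Slbp (1.11 and 1.07). Mitosis genes moved about as far as the 47, with 26 of 30 called higher in mKate2- and 25 in mKate2+ cells, 0 lower, and medians of 1.49 and 1.43. The spindle checkpoint kinase gene Bub1b rose by 1.71 and 1.69 and the mitotic kinase gene Aurka by 1.92 and 2.10.

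The regulators of S phase entry were mixed. Of 27 genes, 26 were tested, and 10 were called higher and 4 lower in each SB28 group. Over all genes tested, 11.5% were called higher and 22.4% lower in mKate2- cells, and 12.2% and 22.8% in mKate2+ cells. Ccna2, the S phase cyclin A2, was at 64.6, 69.8 and 79.1 CPM in astrocytes, 256, 277 and 298 CPM in mKate2- and 302, 257 and 305 CPM in mKate2+ libraries, and E2f2 rose by 2.23 ± 0.16 and 2.20 ± 0.17. The 4 that fell were Cdkn1a, Ccnd1, Ccnd2 and Rb1. Cdkn1a, the cyclin-dependent kinase inhibitor p21, was at 745, 696 and 617 CPM in astrocytes, 108, 130.2 and 86.1 CPM in mKate2- and 124, 159.9 and 75.1 CPM in mKate2+ libraries, with log2 fold changes of -2.66 ± 0.18 (adjusted p = 1.86e-05) and -2.52 ± 0.27 (adjusted p = 0.000197). Other inhibitor genes of the list, named after their values were seen, differed. Cdkn2a was at 113 to 192 CPM in astrocytes and 309 to 549 CPM in SB28 libraries. Cdkn2b was at 61.5 to 102 and 127 to 186 CPM, and Cdkn2c at 59.6 to 79.6 and 86.1 to 97.4 CPM. Cdkn1b overlapped, at 102 to 155 and 115 to 139 CPM, and Cdkn1c was at or below 2.78 CPM in every library. Cyclin D1, Ccnd1, fell by 1.45 and 1.36 from a mean of 3428 CPM in astrocytes, and the retinoblastoma gene Rb1 fell by 1.76 and 1.89. Ccnd2, cyclin D2, fell by 1.57 ± 0.45 and 1.52 ± 0.46 (adjusted p = 0.0173 and 0.0233), with 718, 1084 and 2811 CPM in the astrocyte replicates. Without astrocyte replicate 3, the Ccnd2 values were -0.80 and -0.76, short of the fold threshold, and without mKate2- replicate 1 or 3 or any mKate2+ replicate its adjusted p was between 0.0571 and 0.0679.

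Between mKate2+ and mKate2- cells, none of the other replication factors, dNTP supply genes or S phase entry regulators was called. In the mitosis list, 2 of 30 were called lower, Mki67 and Cenpe, and these and the other mitosis genes of this paragraph were named after their values were seen. Mki67, the proliferation antigen Ki-67, was at 146, 133 and 159 CPM in mKate2- and between 50.02 and 115 CPM in mKate2+ libraries, lowest in replicate 2, with a log2 fold change of -0.70 ± 0.27 (unadjusted p = 0.0332, adjusted p = 0.923). Cenpe, a kinetochore motor, had a log2 fold change of -0.64 ± 0.23 (unadjusted p = 0.0226, adjusted p = 0.923). Both are long, with 10061 and 8620 exonic bases. Without mKate2+ replicate 2, their log2 fold changes were -0.41 ± 0.08 and -0.40 ± 0.09, short of the fold threshold (unadjusted p = 0.00077 and 0.00199, adjusted p = 0.9998 for both). Over the mitosis list, 12 of 30 log2 fold changes were above 0, and the SB28 groups did not overlap for 6 genes, 3 of them lower in mKate2+ cells (Mki67, Cenpe and Cenpf) and 3 higher (Plk1, Ube2c and Aurka). Over all genes, 3.88% were lower and 5.46% higher without overlap, and 0.169% were called lower. Plk1, a mitotic kinase gene with 2199 exonic bases, was at 128, 126 and 133 CPM in mKate2- and 165, 141 and 148 CPM in mKate2+ libraries, with a log2 fold change of 0.22 ± 0.08 (unadjusted p = 0.0294, adjusted p = 0.923), short of the fold threshold.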

How the data were processed

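Gene expression was measured by RNA-seq of sorted cells (paired-end Illumina HiSeq reads). Per the study's methods and the submitters' processing notes, the authors trimmed adapters (Trimmomatic 0.36), mapped reads to GRCm38 (STAR 2.5.2b) and counted unique hits per gene (featureCounts, Subread 1.5.2), and they deposited raw counts without normalization. The annotation release and strand setting are not given in the sources used here. The sort gates written in the labels give CellTrace Violet to tumor cells, whereas the methods stain astrocytes, so libraries were taken by their names.

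The 47 genes and all lists were chosen with earlier results of these data known, so that they are not independent of them. IDs were matched to symbols, positions and exonic lengths in GENCODE M21, in which 49056 of 49315 IDs have a name. Analyses used R 4.3.3, edgeR 4.0.16 and DESeq2 1.42.0, with TMM scaling, and edgeR's quasi-likelihood test on the 6 libraries of each comparison. Standard errors were taken as the log2 fold change divided by the square root of F. Levels are CPM with TMM factors over all 9 libraries. Values in every library are given for the gene with the highest level per kb of each role, those with the smallest p and the largest and smallest changes, those whose call differed, and Fam111a and Mcm5; from other lists, the 2 called genes per direction with the smallest adjusted p and those that fell were named, some by their fold change alone. Some further genes were named to show a role in full, and 1 that the rule names is not reported here. Procedures were tested on simulated data. Alternatives were DESeq2, other scaling, other filters, all 9 libraries in 1 fit, a replicate block, removal of a gene length trend (loess, span 0.3) and leaving out each library. Total counts of 24454561 to 39287841 per library left the spread between 3 libraries as the limit on precision. A search for PCNA-interaction letters in proteins was not analysed here.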

Additional observations from a re-analysis of the deposited data

How the results depend on the processing

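Against astrocytes, 38 of the 39 genes called in each comparison were called under all 14 alternatives that kept the thresholds, and the number called ranged from 38 to 40 in mKate2- and from 38 to 41 in mKate2+ cells. In mKate2+ against mKate2- cells it was 0 under every alternative run. By adjusted p alone, the counts were 45, 44 and 0. Calls changed for Orc2 (log2 fold change 0.94 to 1.12 in mKate2- and 0.82 to 1.10 in mKate2+ cells), Gins4 (0.88 to 1.02 and 0.99 to 1.26) and Rpa2 (0.75 to 1.00 and 0.86 to 1.11), which lie near the fold threshold; the cause was not tested. Upper-quartile scaling moved the median of all genes to -0.12 in both comparisons with astrocytes, and without a filter on low counts it was -0.21 and -0.19. For Rfc3 against astrocytes, the sign turned in mKate2- cells under upper-quartile scaling (-0.03), with at least 10 counts in each library (-0.03) and without mKate2- replicate 3 (-0.03), and in both comparisons without astrocyte replicate 2 (-0.09 and -0.03). Between the SB28 groups, library totals without TMM gave the 47 genes a median of -0.01, beside -0.05 over all genes.

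Whether libraries of the same replicate number share a co-culture is not stated in the labels, and the correlation of deviations between mKate2- and mKate2+ libraries of the same number was -0.0037, 0.136 and 0.17, against -0.178 to 0.082 between unlike numbers. mKate2+ replicates 2 and 3 correlated best with the mKate2- library of their own number and replicate 1 with mKate2- replicate 3, so pairing was left as a hint from the data and the libraries were not taken as paired, although the study sorted the populations from 3 separate co-cultures. The summed level of the 47 genes in TMM-normalized CPM was higher in the mKate2+ library at each of the 3 numbers, but this depended on the scaling. As a share of all counts, the mKate2+ library was higher at number 1 (0.501% against 0.499%). It was lower at number 2 (0.451% against 0.474%) and number 3 (0.540% against 0.542%). The mean share was lower in mKate2+ cells (0.497%) than in mKate2- cells (0.505%). With the replicate block, 39, 39 and 0 of the 47 genes were called in the 3 comparisons, and over all genes 13 were called higher and 33 lower in mKate2+ against mKate2- cells, where the fit without it called 23 and 20. These counts over all genes were 62 and 21 with DESeq2, 224 and 35 without a filter, 41 and 12 with all 9 libraries in 1 fit, 13 and 19 with the length trend removed and 12 and 15 with over 50 counts in every library. Without mKate2+ replicates 1, 2 and 3 they were 310 and 70, 5 and 16, and 232 and 36, and without an mKate2- replicate 9 to 15 higher and 21 to 28 lower. Against astrocytes, adjusted p alone called 3910 higher and 4515 lower in mKate2- cells, where the fold threshold left 1531 and 2994, and 3732 and 4281 in mKate2+ cells, where it left 1634 and 3041.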
